A study of Rattus norvegicus with 4 samples.

Results

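The genes described here are 40 rat genes of the defence against oxidants and of its control. They comprise the regulators and targets of the transcription factor NRF2, the peroxidases and dismutases, and the glutathione and thioredoxin genes. They were taken from a fixed list of gene symbols, and a probe was assigned to a gene through the RefSeq transcript it was designed on. All 40 had a probe, out of 16575 named genes on the array. The 40 genes had 49 probes in all, of which 36 were printed as 1 spot, 3 as 2 spots and 10 as 10 spots per array.

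The samples were 4 cultures of NR8383, an alveolar macrophage line from lung lavage of a normal rat, used at 20 passages. After 48 h in culture, each was treated for 4 h with NRCWE006 (multi-walled carbon nanotubes) at 1 cm2 of nanotube surface per cm2 of culture. The 4 biological replicates make up a single group, and each was hybridised to its own single-colour Agilent array. Control cultures were not analysed here. The values are therefore levels in treated cells, and they give no effect of the nanotubes. The line is a model of the alveolar macrophage, and it carried only part of the marker set of that cell. Of 12 macrophage markers, 5 were well above background on all arrays (Cd68, Lyz2, Spi1, Fcgr1a and Tyrobp), while Itgam, Csf1r, Mrc1, Adgre1 and Cd14 were not well above background on any. None of 20 markers of lung epithelium, fibroblasts, lymphocytes and granulocytes with a probe was so on all arrays. The surfactant protein genes Sftpb and Sftpd and the macrophage genes Marco and Cd163 were called on replicate 4 alone.

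NRF2, the product of Nfe2l2, is held low by KEAP1, which hands it to the proteasome. Oxidants and reactive chemicals modify KEAP1, and NRF2 then enters the nucleus, pairs with a small MAF protein and binds antioxidant response elements beside genes for glutathione synthesis, thioredoxin recycling and quinone reduction. Peroxiredoxins and glutathione peroxidases remove peroxides, superoxide dismutases feed them with hydrogen peroxide made from superoxide, and thioredoxin and glutathione return the oxidised enzymes to work. Alveolar macrophages make superoxide themselves when they take up particles, so they meet oxidants from within as well as from inhaled air.

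The response element is a short sequence, and it is shown first because it is what the NRF2 targets are known to share. The core TGACNNNGC was searched on both strands in RefSeq promoter windows of assembly GRCr8, each covering 250 bases before to 50 bases after a transcription start. Windows were at hand for 36 of the 40 genes, 42 windows in all because some genes have several starts (Prdx6, Gsr, Mgst2 and Txnip had none). The core was present in 11 of the 42 windows (26.2%), against 12.1% of all 33469 windows. Each of the 11 belonged to a different gene. Among the NRF2 targets these genes were Me1, Gclm and Txnrd1 only, and the rest belonged to other groups. The longer form TGACTCAGC, which also holds the AP-1 site TGANTCA, was in 3 windows, those of Gstp1, Prdx1 and Me1, against 0.415% of all windows. The 11 matches are given below with 10 bases on either side where the window allows, on the strand of the gene, with the match in capitals. A core on the opposite strand is printed as it reads on the strand of the gene.
Gstp1, detected, chr1:210769748-210769776, minus strand: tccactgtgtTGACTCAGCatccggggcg
Prdx1, detected, chr5:135383761-135383789, plus strand: cagggaaagcGCTGAGTCAtaccccgccg
Me1, detected, chr8:96540393-96540421, minus strand: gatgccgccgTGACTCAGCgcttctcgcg
Prdx5, detected, chr1:213532010-213532038, minus strand: cctcctgtggGCAGAGTCAtctgcgggtg
Nfe2l2, detected, chr3:81028950-81028971, minus strand: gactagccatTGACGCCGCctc
Sod2, called on 3 arrays, chr1:50050185-50050213, minus strand: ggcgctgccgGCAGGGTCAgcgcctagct
Gclm, called on none, chr2:213031953-213031981, plus strand: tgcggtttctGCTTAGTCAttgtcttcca
Txnrd1, called on none, chr7:22755964-22755992, minus strand: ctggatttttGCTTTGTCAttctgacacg
Gpx2, called on none, chr6:101230028-101230056, minus strand: acctggtttcGCTAAGTCAttctgggaat
Gsta3, called on none, chr9:31154962-31154990, plus strand: aactcaggcaTGACTTCGCattttttcct
Prdx4, called on none, chrX:43878742-43878770, plus strand: tttcgtgctcGCTTGGTCAtggaaacgtg

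Genes with the core were found among both the measurable and the unmeasurable genes. Of the genes with a window, 5 of 18 detected on all arrays held it, 1 of 9 called on some arrays and 5 of 9 called on none. The AP-1 site TGANTCA, which reads the same on both strands, lay in the windows of 7 of the 18 detected genes (Srxn1, Prdx1, Me1, Gstp1, Glrx, Gsto1 and Mgst1) and in none of the 9 called on some arrays or the 9 called on none, against 8.04% of all 27457 genes with a window. These are counts of letters in a window, the AP-1 search was added after the levels were known, and neither count was tested. The shares among all detected and all undetected named genes were not counted. The split by detection therefore cannot be called particular to these genes. The sites of Prdx1, Glrx, Gsto1 and Mgst1 that do not overlap the core are shown, with up to 10 bases on either side.
Prdx1, chr5:135383656-135383674, plus strand: gaTGACTCAaagggcagtc
Glrx, chr2:7073634-7073660, plus strand: tagtaactggTGACTCActccagaatg
Gsto1, chr1:256662545-256662571, plus strand: acgtgcttccTGAGTCAcccgcaaacg
Mgst1, chr4:172760780-172760806, plus strand: gctgagccggTGATTCAggggcggggc

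Srxn1, whose product sulfiredoxin repairs over-oxidised peroxiredoxins, was a detected NRF2 target with 2 AP-1 sites and no match to the core as searched. Its second site, with the 2 bases after it, differs from the core at 1 base. A looser core was not searched, so Srxn1 cannot be said to lack a response element. Txnrd1, which encodes the cytosolic thioredoxin reductase, was a target with the core whose probes were called on no array. This pair is not a rule. Me1, the other detected target, held the core, and Nqo1, called on no array, held neither motif in its window. Sites outside the windows were not searched, so a gene without a match may still have a response element. The 250 bases before each start are shown for Srxn1 and Txnrd1. The capitals mark the AP-1 sites of Srxn1, the second of which runs past the start, and the core of Txnrd1, for which 1 of its 2 windows held a match.
Srxn1, chr3:161064562-161064811, plus strand: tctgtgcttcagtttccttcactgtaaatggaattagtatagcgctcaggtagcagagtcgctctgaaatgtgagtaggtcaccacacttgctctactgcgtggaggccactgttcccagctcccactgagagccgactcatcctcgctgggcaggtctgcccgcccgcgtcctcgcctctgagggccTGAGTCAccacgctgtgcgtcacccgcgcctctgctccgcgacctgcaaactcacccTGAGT
Txnrd1, chr7:22755905-22756154, minus strand: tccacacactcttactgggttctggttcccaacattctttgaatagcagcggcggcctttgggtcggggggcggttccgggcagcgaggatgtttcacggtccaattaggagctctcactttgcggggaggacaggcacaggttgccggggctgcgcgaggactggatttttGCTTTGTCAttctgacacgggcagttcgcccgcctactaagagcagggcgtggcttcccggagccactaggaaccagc

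The first question was which of these genes were measurable. The scanner software flags spots that are well above background. A probe counted as called if more than 50% of its spots on that array had this flag, and a gene was detected when 1 of its probes was called on all 4 arrays. By this rule 20 of the 40 genes (50%) were detected, against 11.9% of the 16413 named genes with a measured spot on every array. A further 10 were called on 1 to 3 arrays and 10 on none. The genes were chosen with earlier results of these data known, so the 50% is not independent of the data. The arrays as a whole called between 4252 and 6476 of 45598 probes, no gene spot was saturated, and the 95th percentile of the negative control signal lay between 3.48 and 5.10. With 4 arrays the precision of every value is limited, and signals of different probes cannot be ranked against each other. A gene that was not called may still be expressed at a level too low for its probe.

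**Figure D1:**
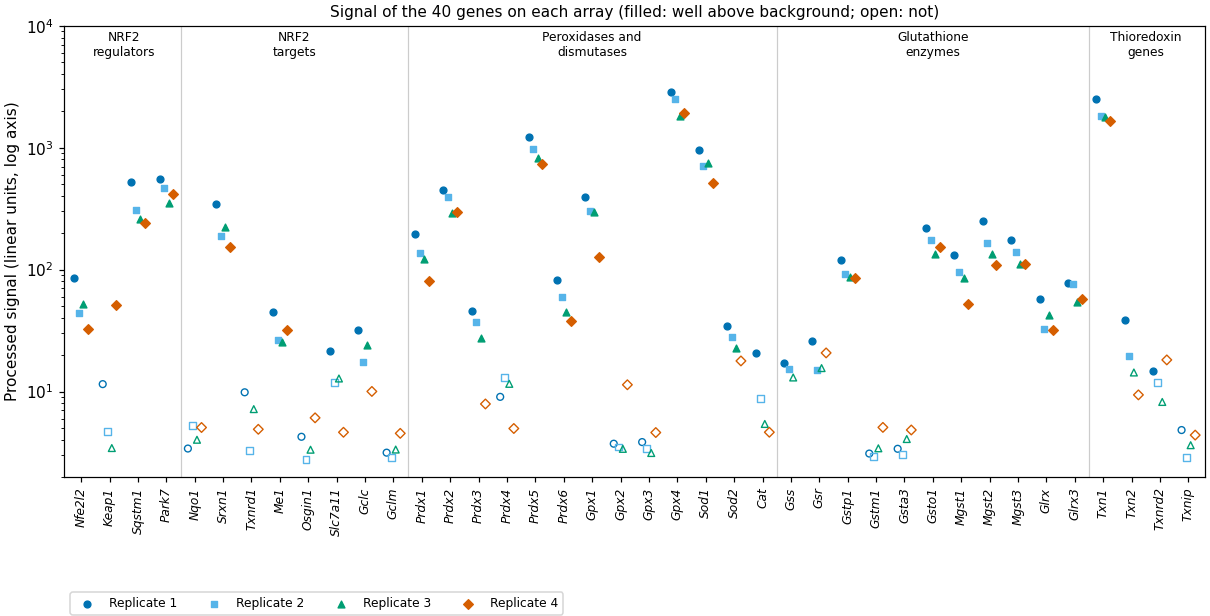
Processed signal (linear units, log axis) of the 40 genes on each of the 4 arrays, 1 probe per gene, with filled symbols for calls well above background and open symbols for the rest. Gpx4 has signals of at least 1827 and Txn1 of at least 1661 on every array, while Nqo1, Gclm, Osgin1 and Txnip stay below 10 on every array. The replicate 4 spot of Gss was an outlier by the software's flags and is not drawn.

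Most regulators of the pathway were measurable. Nfe2l2 had signals of 85.1, 44.3, 52.4 and 32.8 on replicates 1 to 4. All levels from here on are log2 signals relative to the 75th percentile of the detected probes on the same array, which was 384, 281, 236 and 223. On this scale Nfe2l2 had levels of -2.17, -2.66, -2.17 and -2.77, with a mean of -2.44 ± 0.32 (SD, n = 4). Replicates 1 and 3 were higher than replicates 2 and 4, and the range came to 1.51-fold.

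Sqstm1, which encodes p62, an autophagy adaptor that binds KEAP1, was detected by 3 probes. The brightest had levels of 0.44, 0.13, 0.14 and 0.11, and the other two had -0.85, -1.09, -0.98 and -1.67, and -1.40, -1.97, -1.63 and -1.48. All 3 probes were highest in replicate 1, while they disagreed on replicate 4, which was the lowest array for the first 2 and the second highest for the third. Park7, encoding the oxidant-sensing protein DJ-1, had levels of 0.53, 0.72, 0.57 and 0.89 by 1 probe, and a second probe on another transcript was not called on any array. Keap1 was called on replicate 4 only, where its single spot had a signal of 50.9 against 11.5, 4.73 and 3.44 on replicates 1 to 3.

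Of the 8 NRF2 targets, 2 were detected, 2 were called on some arrays and 4 on none. Srxn1 had signals of 343, 189, 221 and 154 and levels of -0.16, -0.57, -0.09 and -0.53 (-0.34 ± 0.25, SD, n = 4). Replicates 1 and 3 were again above replicates 2 and 4, as for Nfe2l2. Glrx, outside the target group, had the same arrays on top, and the other detected target did not. How many of all detected genes had this order was not counted. Me1, encoding the NADPH-producing malic enzyme, had levels of -3.10, -3.42, -3.22 and -2.81 (-3.14 ± 0.25, SD, n = 4), with its highest value in replicate 4.

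The genes of glutathione supply among the targets were dim. Gclc, the catalytic subunit of the enzyme that limits glutathione synthesis, was called on replicates 1 to 3 with signals of 32.1, 17.6 and 24.0 and was not on replicate 4, at 10.0. Gclm, its modifier subunit, was called on no array, with signals between 2.90 and 4.54. Slc7a11, the cystine transporter that brings in the building block of glutathione, was called by 1 of its 2 probes on replicate 1 alone (21.7, against 11.8, 12.8 and 4.63). Nqo1, the quinone reductase, Txnrd1 and Osgin1, an oxidative stress-induced growth inhibitor, were called on no array, and both probes of Txnrd1 were at or below a signal of 10.04. The most used reporter gene of NRF2, Nqo1, had signals of 3.41, 5.27, 4.02 and 5.07, near the negative controls.

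Peroxidases and dismutases were detected in 7 of 13 cases. Among the peroxiredoxins, Prdx5, which works in mitochondria, peroxisomes and the cytosol, had levels of 1.66, 1.80, 1.79 and 1.72, and its SD of 0.06 was the smallest among the 20 detected genes. Cytosolic Prdx2 had levels of 0.23, 0.48, 0.30 and 0.40, and Prdx6, which uses glutathione in place of thioredoxin, had -2.23, -2.23, -2.39 and -2.55. Prdx1, the other abundant cytosolic form, had signals of 194, 136, 121 and 80.7 and levels of -0.98, -1.04, -0.96 and -1.47. Replicates 1 to 3 had an SD of 0.04, and replicate 4 lay 0.47 below their mean. Mitochondrial Prdx3 had signals of 45.6, 37.3, 27.7 and 7.91 and was not called on replicate 4. Prdx4 of the endoplasmic reticulum was called on no array, with signals of 9.04, 12.99, 11.56 and 4.97.

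Of the glutathione peroxidases, Gpx1 and Gpx4 were detected and Gpx2 and Gpx3 were not. Gpx1, the main cytosolic form, had 2 probes printed 10 times each, with signals of 394, 300, 294 and 127 for the brighter and 365, 269, 210 and 116 for the dimmer. Their levels were 0.04, 0.10, 0.32 and -0.81, and -0.07, -0.06, -0.17 and -0.95. By both probes, the 9 kept spots on replicate 4 were all below the kept spots of the other arrays: the highest there were at levels of -0.58 and -0.61, and the lowest elsewhere at -0.19 and -0.39. The spot of each probe that was left out there as an outlier was brighter, at levels of 0.07 and 0.80, so the arrays are apart only over the kept spots. Gpx4, which reduces lipid peroxides in membranes, had signals of 2842, 2505, 1827 and 1909 and levels of 2.89, 3.16, 2.95 and 3.10, and its second probe ranged over only 1.13-fold. Gpx3, the form secreted into plasma, was called on no array. Gpx2, the form of gut epithelium, had 10 spots per array and a mean signal of 3.73, 3.50, 3.39 and 11.4, and was not called on replicate 4 either.

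Sod1, the copper and zinc superoxide dismutase of the cytosol, had levels of 1.32, 1.33, 1.65 and 1.20 (1.37 ± 0.19, SD, n = 4). Sod2, the manganese form of mitochondria and a gene induced by inflammatory signals in macrophages, was dim, with signals of 34.55, 28.01, 22.93 and 17.81, and was called on replicates 1 to 3. Catalase, encoded by Cat, was called on replicate 1 alone at 20.9, against 8.77, 5.42 and 4.63.

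Glutathione enzymes were detected in 7 of 11 cases, and all 3 microsomal transferases were among them. Mgst1, which protects membranes from lipid peroxides, had levels of -1.53, -1.54, -1.47 and -2.09, with an SD of 0.04 over replicates 1 to 3, and replicate 4 stood 0.57 below their mean. Mgst2, which can also make leukotriene C4, had -0.62, -0.77, -0.81 and -1.02, and Mgst3 had -1.147, -1.001, -1.085 and -0.992. The pi-class transferase gene Gstp1 had levels of -1.69, -1.62, -1.44 and -1.38 by its brighter probe and -3.40, -3.03, -3.01 and -2.94 by the other, both printed 10 times and both in the same order of arrays. Gstm1 and Gsta3, transferases of liver, were called on no array, with signals of at most 5.08.

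Of the other genes of this group, the omega-class transferase gene Gsto1 had levels of -0.79, -0.68, -0.82 and -0.54. Glrx, the cytosolic glutaredoxin, which removes glutathione from proteins, had -2.73, -3.10, -2.46 and -2.79, and Glrx3, which serves iron handling, had -2.30, -1.88, -2.12 and -1.96. Gss, encoding the enzyme of the last step of glutathione synthesis, was called on replicates 1 and 2 at signals of 17.2 and 15.2 and was not on replicate 3 at 13.03. Its spot on replicate 4 carried an outlier flag and a signal of 147, and was left out. Gsr, encoding glutathione reductase, was called on replicates 1 and 2 as well, with signals of 26.1, 15.1, 15.6 and 20.7.

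Of the thioredoxin genes, Txn1 alone was detected. It encodes the cytosolic thioredoxin and had signals of 2521, 1834, 1780 and 1661 and levels of 2.72, 2.71, 2.92 and 2.90, an SD of 0.11 over a range of 1.16-fold. The mitochondrial pair was called on some arrays only. Txn2 was called on replicates 1 and 2, with signals of 38.5, 19.4, 14.3 and 9.38, and its reductase Txnrd2 on replicate 1 only, with 14.7, 11.8, 8.21 and 18.2. Txnip, which binds and inhibits thioredoxin, was called on no array, with signals between 2.89 and 4.83.

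A list of 60 further genes of the same pathways, of which 58 had a probe, gave 23 detected (39.7%), against the same 11.9% of named genes. This list too was chosen with earlier results of these data known. All 5 haem and iron genes were among the 23 detected. Hmox1, an NRF2 target that encodes haem oxygenase 1, had levels of -0.62, -0.81, 0.03 and 0.35, and Blvra, one of the biliverdin reductases, had -1.20, -1.20, -1.58 and -2.03. Blvrb, Fth1 and Ftl1 were the others. In replicate 4, Hmox1 was thus at its highest and Blvra at its lowest. Among the NADPH suppliers, Taldo1, which encodes transaldolase, had levels of -0.93, -1.07, -0.90 and -1.53, and Tkt, which encodes transketolase, was also detected.

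The NRF2 partner list had 2 of 6 genes detected, Mafg, a small MAF partner of NRF2, at -3.29, -3.75, -3.60 and -3.48, and Rbx1, a subunit of the ligase that KEAP1 works with, at -0.11, 0.06, -0.15 and -0.11. Detoxification and export genes had 4 of 10, namely Abcc1, which exports glutathione conjugates, at -2.97, -3.39, -3.41 and -2.71, Cbr1 at -1.90, -1.82, -1.78 and -2.00, Akr1b8 and Akr1a1. Other detected genes were Gsta1 (-1.90, -2.16, -1.55 and -1.95), Glrx5 (-1.22, -1.34, -1.14 and -1.51), Slc3a2, the partner chain of Slc7a11, Hagh, the selenoprotein genes Selenow (-2.69, -2.58, -2.46 and -2.78) and Selenok (-0.49, -0.60, -0.76 and -1.01), the copper chaperone gene Ccs (-2.40, -2.75, -2.88 and -2.25), and Msrb1 (-0.48, -0.13, -0.19 and -0.34) and Msrb2, which repair oxidised methionine.

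The next comparison was between the 4 cultures. The median SD of the detected antioxidant genes over the 4 arrays was 0.17, against 0.24 over all 1945 detected named genes, whose 10th and 90th percentiles were 0.10 and 0.52. With no filter on dim probes it was 0.32 over antioxidant genes with a value on all arrays, against 0.55 over all named genes. The detected antioxidant genes were also brighter, with a median level of -0.76 against -1.58, and the part of brightness in their smaller SD was not tested. Only Gpx1 ranged over more than 2-fold between its highest and lowest array (2.19-fold), 1 of 20 genes against 15.3% of detected named genes. It stayed under 2-fold without replicate 3 or replicate 4 and as a mean over its 2 probes, and 5 of the 20 genes passed 2-fold after quantile normalization.

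**Figure D2:**
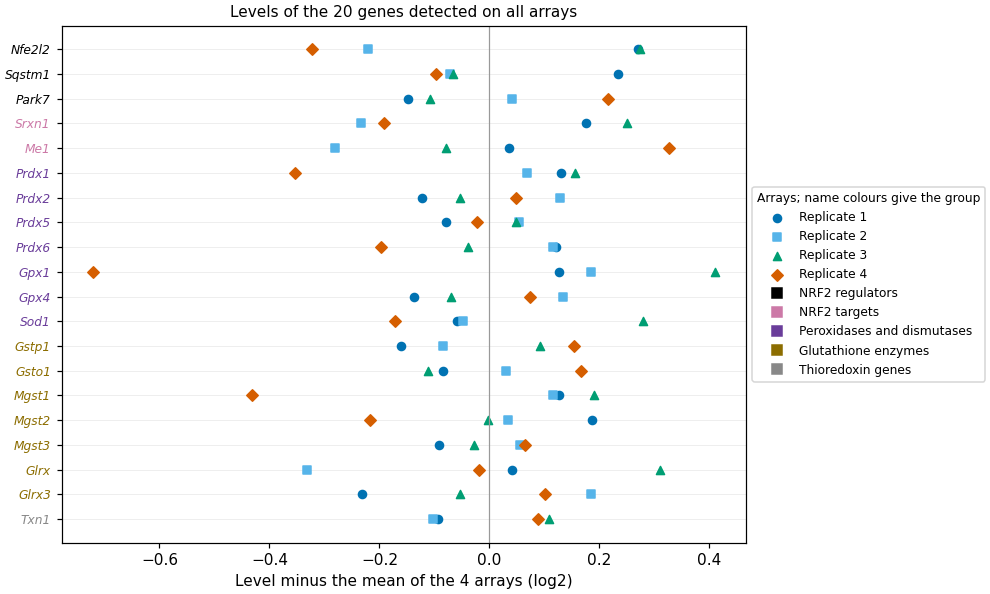
Level of each of the 20 genes detected on all arrays minus its mean over the 4 arrays (log2), with 1 symbol per array and the gene names coloured by group. Replicate 4 lies furthest to the left for Gpx1, Mgst1, Prdx1, Nfe2l2, Mgst2, Prdx6, Sod1 and Sqstm1, and furthest to the right for Me1, Park7, Gsto1, Gstp1 and Mgst3.

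Replicate 4 was compared with the mean of replicates 1 to 3 because its array stood apart: non-uniform gene spots numbered 656 there and 9 to 34 on the others, and its negative controls had a median signal of 4.61, against 2.98 to 3.36. The part of these array differences in the values below was not tested. A lower level in a culture also cannot tell fewer cells that make a transcript from less of it per cell. The median difference over the 20 genes was -0.03, against -0.07 over all detected named genes. Replicate 4 was the lowest array for 8 of the 20 genes (40%), against 39.6% of detected named genes, and the highest for 5 (25%), against 30.1%. These shares were near those of the other genes.

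Gpx1 was 1.95-fold lower in replicate 4 than the mean of the other arrays, a log2 difference of -0.96, Mgst1 1.49-fold lower (-0.57), Prdx1 1.39-fold lower (-0.47) and Nfe2l2 1.35-fold lower (-0.43). At the other end stood Me1, 1.35-fold higher (0.43), and Park7, 1.22-fold higher (0.29). The median of all detected genes moved to -0.47 without scaling, -1.64 with all gene probes as the base of scaling, -0.40 after quantile normalization and 0.08 after normexp background correction. Relative to that median, 6 genes were below it in each of 12 settings (Gpx1, Mgst1, Prdx1, Mgst2, Nfe2l2 and Prdx6) and 7 were above it (Park7, Gsto1, Gstp1, Glrx3, Gpx4, Mgst3 and Prdx2). In 2 of the settings, no scaling and the other base of scaling, the side is the same by construction, since a shift of a whole array cancels. Detection by negative controls and calls on at least 3 arrays moved every gene by the same small amount relative to the median. Keeping all spots or averaging over probes did so for genes with no flagged spot or with 1 detected probe. The setting as reported is also 1 of the 12, so these are not 12 separate checks. Gpx1 lay between -0.96 and -0.70 relative to it, Mgst1 between -0.67 and -0.24 and Prdx1 between -0.45 and -0.27. Others came close to it, with Nfe2l2 at -0.02, Prdx6 at -0.05, Mgst2 at -0.07, Prdx2 at 0.02 and Gsto1 at 0.02 in the setting nearest to it. The other 7 changed side in at least 1 setting, among them Me1, which lay at -0.21 after quantile normalization, and Srxn1, at 0.04 in that setting and 0.05 with normexp.

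**Figure D3:**
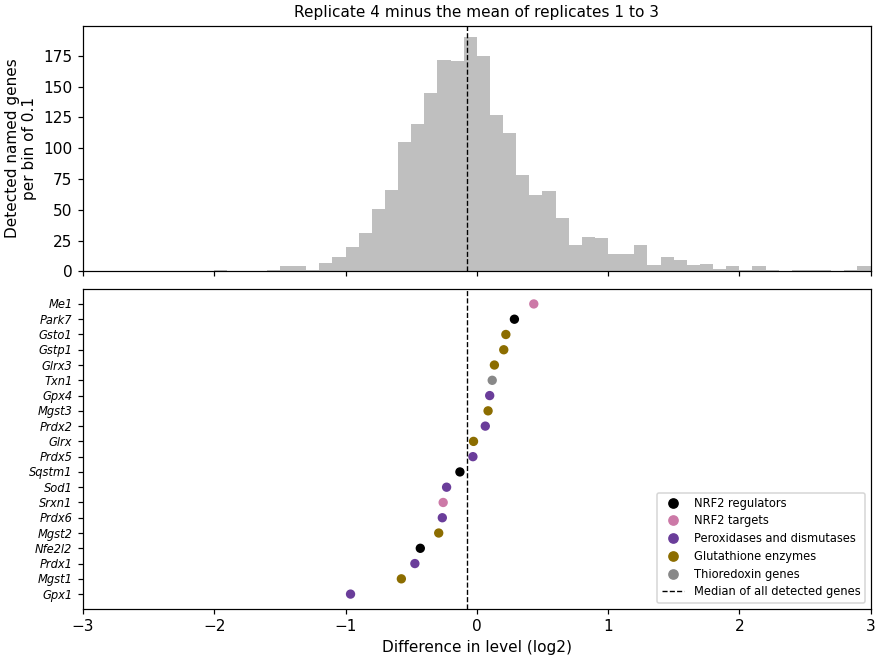
Difference in level (log2) between replicate 4 and the mean of replicates 1 to 3, as a histogram over the 1945 detected named genes in bins of 0.1, with the genes beyond 3 in the end bins (upper panel), and for each of the 20 detected antioxidant genes, coloured by group (lower panel). The dashed line is the median of all detected genes at -0.07. Gpx1 at -0.96 lies well below it and Me1 at 0.43 above it.

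Detection in replicate 4 was then compared for the dimmer genes. Of 23 antioxidant genes called on replicates 1 to 3, 3 were not called on replicate 4, namely Gclc, Prdx3 and Sod2. Of the 2459 named genes called on replicates 1 to 3, 20% were not. For Gclc, Prdx3 and Sod2, replicate 4 lay at -0.85, -1.79 and -0.26 relative to the mean level of replicates 1 to 3. Gsr was called at a signal of 15.1 on replicate 2 and was not at 20.7 on replicate 4. Calls therefore did not follow a single signal cutoff over the arrays. Keap1 alone was called on replicate 4 and on no other array, 1 of the 30 antioxidant genes called on any array, against 24.6% of 4801 such named genes. Without replicate 4, 23 genes were detected, the 20 and these 3.

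For the probes printed 10 times the noise between spots of an array was measured, and differences between arrays were tested against it with the moderated F test of limma. This test compares arrays and not cultures or conditions, since each culture had 1 array. Of the 9 detected antioxidant probes printed 10 times, 7 differed at an adjusted p below 0.05, against 74.6% of the 709 detected probes and 81% of all 1350 probes tested, so the share was near that of other probes. Both probes of Gpx1 differed (adjusted p = 1.6e-13 and 2.4e-12, limma), with an SD between spots of 0.09 to 0.30 and an SD between arrays of 0.50 and 0.43. Without replicate 4 the brighter probe still passed (0.0073) and the dimmer did not (0.11).

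Prdx1 also differed (adjusted p = 9.0e-07, limma). On replicate 1, 1 of its 10 spots had a signal of 10.6 and was left out as an outlier. With that spot and all other flagged spots kept, the adjusted p was 0.26, and it was 0.49 without replicate 4. Mgst2 passed with 0.0022 and Txn1 with 0.0064, and both lost the call with normexp (0.31 and 0.48). Txn1 also lost it after quantile normalization (0.19), and Mgst2 without replicate 4 (0.051). The brighter probe of Gstp1 passed with 0.015 and the dimmer with 0.0021. Both lost the call without replicate 1, the array on which Gstp1 was lowest (0.092 for the brighter and 0.80 for the dimmer), and the brighter also after quantile normalization (0.20). Prdx5 and Mgst3 did not pass (0.27 and 0.25), with ranges over the 4 arrays of 0.13 and 0.16. They passed without scaling between arrays or with all gene probes as the base of scaling, and Mgst3 also with normexp (0.028).

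**Figure D4:**
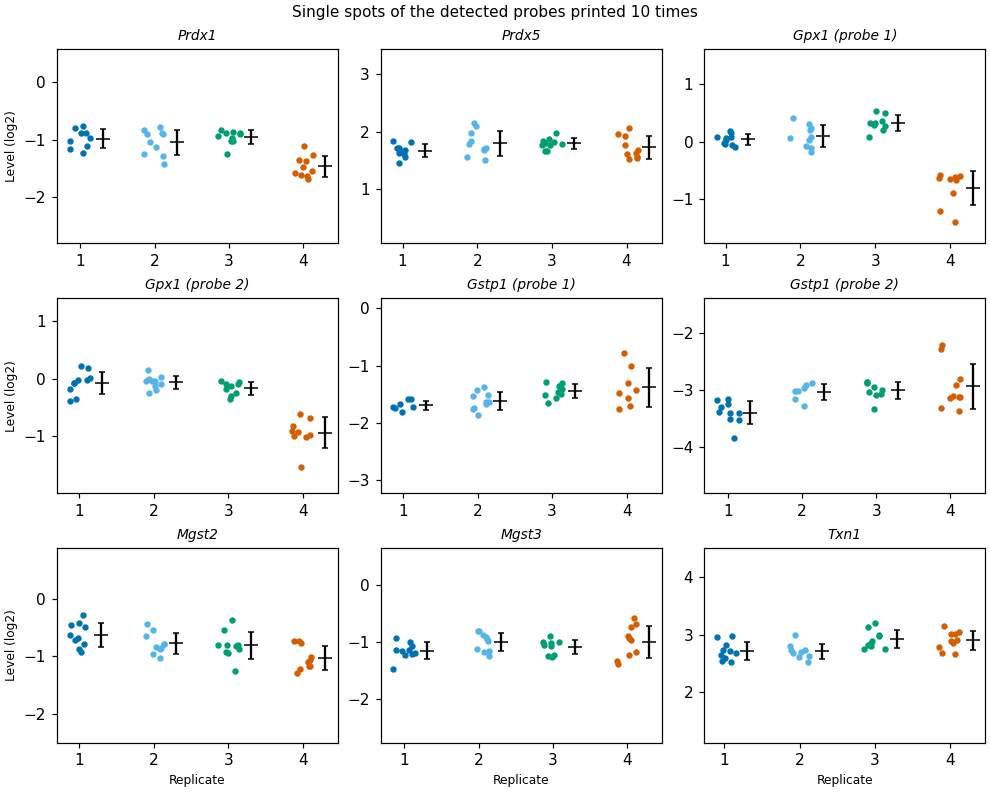
Level (log2) of every kept spot of the 9 detected antioxidant probes printed 10 times, by replicate, with the mean and SD over spots beside the points. Each panel spans the same height on the log2 scale. The kept spots of both Gpx1 probes on replicate 4 lie below all others, while those of Prdx1, Prdx5, Mgst2, Mgst3, Txn1 and both Gstp1 probes overlap between all arrays.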

How the data were processed

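The deposited spot intensities are linear and background-subtracted, per the file headers and the submitters' processing notes, which name Agilent Feature Extraction 11.0.1.1, with no scaling between arrays. Control spots (4259) and spots flagged as non-uniform or as population outliers (596, 546, 560 and 1296 gene spots on replicates 1 to 4) were left out. The log2 signals of a probe's spots were averaged and set against the array's 75th percentile over the 3208 probes detected on all arrays. Names came from the RefSeq gene table of GRCr8, which named 21102 of 45598 probes (46.3%). The headers name an older build, so array coordinates were not used. The brightest detected probe gave a gene's value. Every one of the 40 genes was accounted for, with levels for detected genes and, from the pathway list, for the first 2 detected of each group. The values of 1 gene of the pathway list are not reported here.

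Probes with at least 3 spots on every array were tested with the moderated F test of limma 3.58.1 in R 4.3.3, with Benjamini-Hochberg adjustment over 1350 probes. Tested on simulated data for this comparison of arrays (1350 probes), it called 40%, 80%, 96% and 100% of 50 probes each changed by 0.25, 0.5, 1 and 1.5 on the log2 scale, and 9 of 1150 unchanged probes. The simulated spots had independent normal noise with each probe's SD over kept spots, as the test assumes. Outlying spots and array-wide differences were not simulated, so these shares need not hold for the real arrays. Python 3.11.15, numpy 2.4.6 and pandas 2.3.3 were used for the rest. The genes and lists were chosen with earlier results of these data known.

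Alternatives covered scaling, background correction (normexp with an offset of 50 on median signals), left-out spots, detection, the probe of a gene, the filter on dim probes and each replicate.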

Additional observations from a re-analysis of the deposited data

Results flagged for a closer look

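In 4 of the 29 antioxidant genes with a value on all arrays and a call on at least 1 (13.8%), 1 array lay far from the other 3 by Dixon's criterion, which chance meets in about 1 group in 20. Over the 4765 named genes taken the same way the share was 15.5%, so the share of antioxidant genes was near that of all genes over both directions. Replicate 4 was the array apart in 646 of the 737 and low in 107 of these. For low values on replicate 4 alone the shares were less alike: 3 of the 29 antioxidant genes, against 2.25% of the 4765 named genes. Prdx1 met the criterion only narrowly, and this difference was not tested. Sqstm1 was high in replicate 1, at a level of 0.44 against 0.11 to 0.14. This held for 1 of its 3 detected probes: the other two had -0.85 and -1.40 in replicate 1 and highest values of -0.98 and -1.48 elsewhere. The others were low in replicate 4: the peroxiredoxin gene Prdx1 at -1.47 against -1.04 to -0.96, the mitochondrial peroxiredoxin gene Prdx3 at -4.82 against -3.09 to -2.91, where it was not well above background, and the membrane transferase gene Mgst1 at -2.09 against -1.54 to -1.47. Of these 4, Prdx1 alone had 10 spots. The part of the array of replicate 4 in the last 3 was not tested.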

How the results depend on the processing

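The count of detected antioxidant genes was 20 with all spots kept, 23 with calls on at least 3 arrays, 25 with detection by negative controls, and 20 to 23 with 1 replicate left out. For the further pathway genes it was 23 with all spots kept, 26 with calls on at least 3 arrays, 30 with detection by negative controls and 23 to 26 with 1 replicate left out. The median SD of 0.166 became 0.372 without scaling, 0.809 with scaling over all gene probes, 0.316 with no filter on dim probes and 0.118 to 0.185 without 1 replicate. The number of genes over 2-fold, 1 as reported, was 8 without scaling, 20 with all gene probes as the base, 5 after quantile normalization, 0 with normexp and 0 as a mean over probes. It was 4 with detection by negative controls (Gclc, Gpx1, Txn2 and Txnrd2), 3 with calls on at least 3 arrays (Gclc, Gpx1 and Prdx3), and 0 to 1 with 1 replicate left out, being 0 without replicate 3 and without replicate 4. The median difference of replicate 4, -0.03 as reported, was -0.43 without scaling, -1.59 with all gene probes, -0.30 after quantile normalization, and of the opposite sign with normexp (0.08) and without replicate 3 (0.05). With 1 of replicates 1 to 3 left out it ran from -0.10 to 0.05. Set against the median of all detected genes it was 0.04 as reported and -0.04 without replicate 2. Of the 9 detected probes, 7 differed between arrays as reported, 9 without scaling and with all gene probes as the base, 5 after quantile normalization, 6 with normexp, 6 with all spots kept, and 4 to 7 with 1 replicate left out, being 4 without replicate 4 and 5 without replicate 1. The cause of these changes was not tested. Over single probes, 10 F tests under alternatives lost the call, 5 gained it and 84 kept their side of the threshold. No paired analysis was possible because there is only 1 group. Signal over background limits Gclc, Prdx3, Sod2 and the other genes called on some arrays, whose levels near background are uncertain.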

Other observations

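The number of antioxidant genes called on an array was 29, 26, 23 and 21 on replicates 1 to 4, while the named genes called numbered 3482, 2921, 2610 and 3340. Replicate 4 thus had the fewest antioxidant genes called and the second most named genes. Of the named genes called there, 1182 were called on no other array, and of the antioxidant genes only Keap1. Among genes called on replicates 1 to 3, replicate 4 lacked 3 of 23 antioxidant genes and 20% of 2459 named genes. The comparison of counts was chosen after the values were seen and was not tested.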
